A study of Mus musculus with 9 samples.

Results

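The activator protein 1 (AP-1) and immediate-early genes examined here were 10 members, Fos, Fosb, Fosl2, Jun, Junb, Jund, Egr1, Egr2, Ier2 and Atf3, out of 23284 gene symbols measured in splenic myeloid-derived suppressor cells (MDSCs) of tumour-bearing mice. The members were chosen by symbol, and the list was selected on measured values of the same data, since the low Fosb level in p16/p21 double-knockout (DKO) cells was part of the choice. Members' values in the comparison of DKO with wild-type (WT) cells are therefore given as a description, without a test.

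AP-1 is a dimer of basic leucine zipper proteins, in which a JUN protein pairs with another JUN protein, a FOS protein or an ATF protein and binds DNA. Immediate-early genes are transcribed within minutes of a stimulus, without new protein synthesis, through kinases that act on factors already bound at their promoters, and their transcripts are short-lived. In myeloid cells these genes respond to growth factors, cytokines, microbial products and cell stress.

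RNA sequencing was performed on 9 samples in 3 groups of 3. The PMN-MDSCs (polymorphonuclear, granulocyte-related cells, isolated as Ly6G+) and the WT Mo-MDSCs (monocytic cells, isolated as Ly6G- Gr-1+) came from C57BL/6J mice labelled wild-type for p16/p21. The third group, labelled p16/p21 double knockout, was Mo-MDSCs from mice of strain C57BL/6, and 1 of its descriptions reads p16/p23 in place of p16/p21. All mice carried SCT (spindle cell tumour) cell allografts, so none of the groups was free of a tumour. The labels give 3 weeks as the age, and the study's methods give 3 weeks as the time after tumour cell injection, with mice that were already adult when injected. Cells were separated with magnetic beads, and the labels do not say whether a sample was 1 mouse or a pool. There were no PMN-MDSCs of the DKO genotype among the samples.

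Levels are FPKM, a fragment count divided by exon length and by the sequencing depth of the sample. The authors also normalized these values across samples, so differences are relative to that scaling. Differences are between group means of log2(FPKM + 0.1), which understate the change of genes at low levels. A gene entered a comparison when it reached 1 FPKM in at least 3 of the 6 samples, and it was called at an adjusted p below 0.05 in limma. All 10 members passed this filter in both comparisons. The number of reads per sample is unknown, and summed FPKM was between 494252 and 916642 per sample. Relative depth, taken from the most common ratio of low values to those of the first WT Mo-MDSC sample, was between 0.809 and 1.31. It also reflects the scaling applied across samples and is not a count of reads.

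The cell type labels and the targeted genes were examined first. The 10 neutrophil markers summed to 99132 to 232526 FPKM in PMN-MDSCs, 17868 to 61878 in WT and 7027 to 17098 in DKO Mo-MDSCs. The 9 monocyte markers summed to 1278 to 1310, 2644 to 3020 and 2157 to 2373 FPKM in the same order. Macrophage markers (6 genes) and B-cell markers (5 genes) were present in every group, at 3368 to 6441 and 1020 to 1635 FPKM. The 5 erythroid markers summed to 1241 to 2904 FPKM. Markers of T and NK cells summed to 5.47 to 12.8 FPKM and those of mast cells or basophils to at most 1.13 FPKM. The 5 dendritic cell markers summed to 6.56 to 8.69 FPKM in PMN-MDSCs, 9.38 to 13.2 in WT and 11.8 to 15.0 in DKO Mo-MDSCs. These sums were the lowest among the marker lists. Cdkn2a, which encodes p16, was at 0.718, 0.772 and 0.432 FPKM in WT Mo-MDSCs and at 0.258, 0.586 and 0 in those labelled DKO. Cdkn1a, which encodes p21, was at 8.18, 6.46 and 8.04 FPKM in WT and at 5.55, 8.52 and 6.00 FPKM in DKO Mo-MDSCs. Both genes overlapped between the genotypes. A level over the whole gene does not show which exons the reads came from, and the deleted part is not given in the sources used here, so these levels do not check the DKO label, and each statement on DKO cells rests on that label. In bulk samples, fewer cells of a type and less RNA per cell cannot be told apart.

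**Figure D1:**
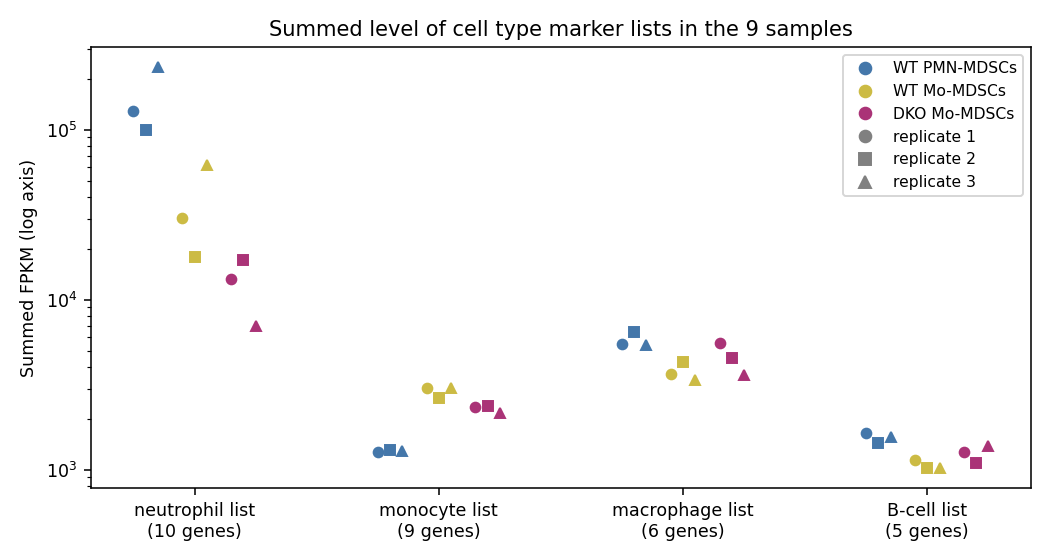
Summed FPKM of 4 marker lists on a log axis, with each point 1 sample, the colour its group and the symbol its replicate number. Neutrophil markers were highest in PMN-MDSCs (99132 to 232526) and lowest in DKO Mo-MDSCs (7027 to 17098), and the 3 groups did not overlap.

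RefSeq promoter windows (build GRCm38.p6) matched 8 of the 10 members, with none for Egr1 and Ier2. Windows of 250 bases before the start were searched on both strands for a cyclic AMP response element (CRE, TGACGTCA), its half-site TGACG, the AP-1 site TGANTCA, the EGR site GCGNGGGCG, the CArG box bound by serum response factor, and the TATA box TATAAA. The half-site lies within the full CRE. The half-site was found in the windows of 5 of the 8 members, Fos, Fosb, Junb, Egr2 and Atf3, against 19.8% of 27025 genes with at least 1 window holding it. Genes can have several windows, as Egr2 does, and a gene was counted when any of its windows held the motif. The EGR site was found in Fosb and Fosl2 (5.33% of genes), the CArG box in Egr2 (1.62%) and the TATA box in Fos (14.3%). None of the 8 members held the full CRE (1.77% of genes) or the AP-1 site (7.82%) in these 250 bases. Bases further upstream were not searched, so any of these motifs not listed for a member may still lie there. The windows of 3 members are printed because Junb and Fos stood at the highest levels and Fosb was the member with a low level in DKO cells. Capitals mark matches to these motifs, which are descriptions of the letters and not evidence of binding. They cover, in this order, chr12:85473640-85473889 on the plus strand, chr7:19310052-19310295 on the minus strand and chr8:84978749-84978998 on the minus strand, read 5′ to 3′ in the direction of the gene. The 6 bases of the Fosb window nearest its start lie in an annotated exon and are left out.
Fos: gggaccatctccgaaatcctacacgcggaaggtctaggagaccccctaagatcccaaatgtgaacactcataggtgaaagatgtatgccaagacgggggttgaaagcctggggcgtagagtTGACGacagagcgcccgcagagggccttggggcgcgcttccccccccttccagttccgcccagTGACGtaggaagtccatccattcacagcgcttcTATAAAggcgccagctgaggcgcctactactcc
Fosb: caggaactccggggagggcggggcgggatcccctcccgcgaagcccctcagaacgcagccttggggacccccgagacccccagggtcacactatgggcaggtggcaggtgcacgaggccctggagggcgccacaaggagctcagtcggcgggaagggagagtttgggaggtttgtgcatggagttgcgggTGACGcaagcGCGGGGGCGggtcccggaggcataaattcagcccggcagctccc
Junb: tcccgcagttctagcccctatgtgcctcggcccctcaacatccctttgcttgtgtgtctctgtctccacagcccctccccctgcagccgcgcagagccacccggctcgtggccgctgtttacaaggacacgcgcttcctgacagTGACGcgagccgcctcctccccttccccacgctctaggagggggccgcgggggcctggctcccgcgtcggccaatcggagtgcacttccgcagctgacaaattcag
The Fos window held the half-site at 129 and 66 bases before the start and the TATA box at 33 bases. In the Fosb window the half-site, at 60 bases, was followed by the EGR site at 50 bases. The Junb window held the half-site at 106 bases.

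The first comparison asked how the members differed between the subsets in WT mice. Of the 9 members other than Fosb, 5 fell in WT Mo-MDSCs relative to PMN-MDSCs (Fos, Fosl2, Junb, Jund and Ier2), 1 rose (Atf3), and Jun, Egr1 and Egr2 did not pass the test. Over all 11491 genes tested, 20.6% were called lower and 18.5% higher. The median log2 difference was -1.02 over these 9 members and 0.01 over all genes. Of these 9 members, 5 lay wholly lower and 1 wholly higher in WT Mo-MDSCs, while 26.4% of all genes lay wholly lower and 26.2% wholly higher. WT Mo-MDSC samples in this comparison also served in the one that led to the choice of Fosb, so no test is given for Fosb. Replicate numbers may pair the samples of the 2 subsets, and the calls given here come from the fit without them. Blocking on the replicate number changed 1 member's call, that of Jun. Over all genes the block gave 3167 higher and 3417 lower.

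**Figure D2:**
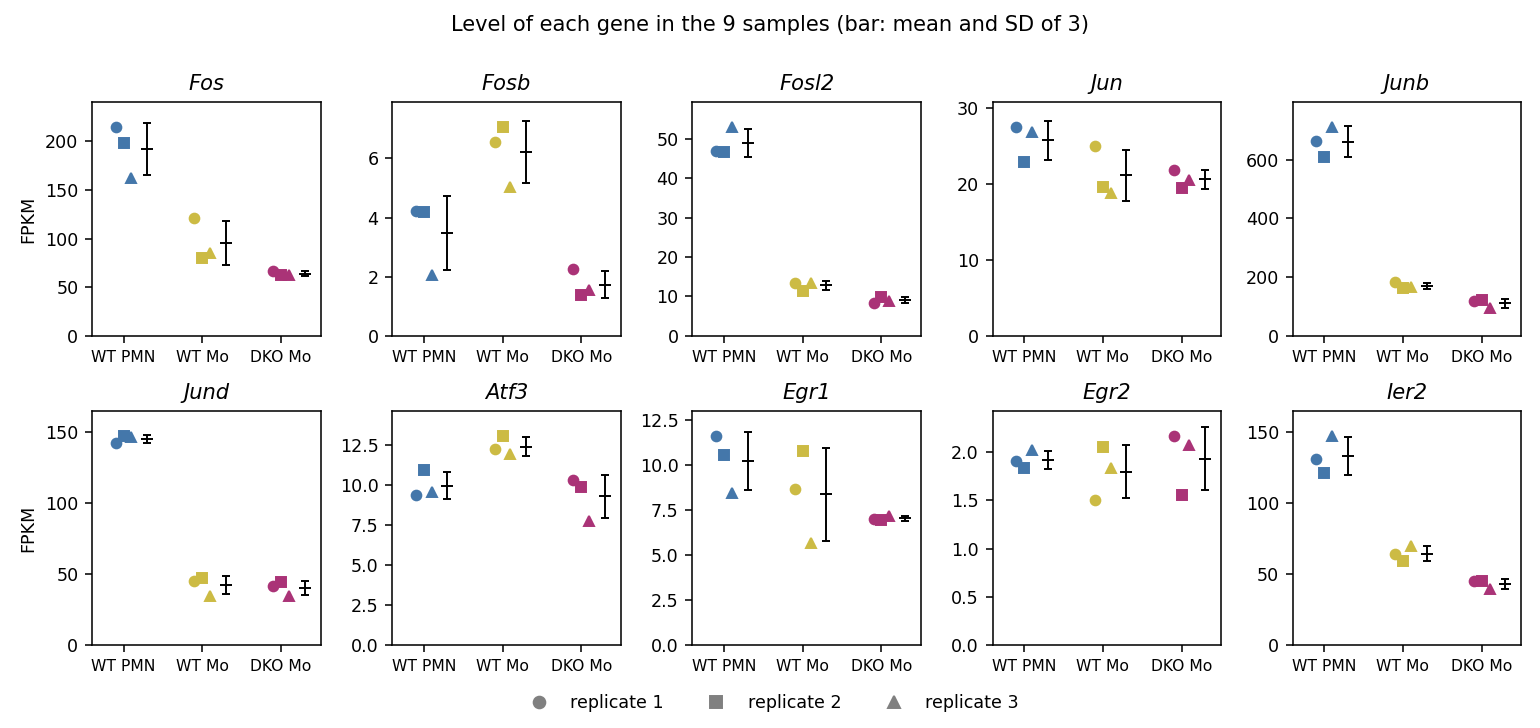
FPKM of each member in the 9 samples (linear axes from 0), with symbols for replicate numbers and a black bar for the mean and SD of 3 samples. PMN-MDSCs had the highest mean for 7 members, WT Mo-MDSCs for Fosb and Atf3, and DKO Mo-MDSCs the lowest mean for 9 members.

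Among the FOS proteins, which dimerise with JUN proteins, Fos was the most abundant on the FPKM scale. The gene lies at chr12:85473890-85477273 on the plus strand. Its level was 215, 198 and 162 FPKM in PMN-MDSCs, 121, 80.3 and 84.8 FPKM in WT Mo-MDSCs, and 67.0, 62.3 and 62.4 FPKM in DKO Mo-MDSCs. Every sample of a group lay below every sample of the group before it, and the first WT Mo-MDSC sample stood above the other two. Fos fell in WT Mo-MDSCs relative to PMN-MDSCs, with a log2 difference of -1.02 (SE 0.18, adjusted p = 0.00396 in limma).

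Fosl2 encodes FRA2, a FOS protein without the strong activation domain of FOS. The gene lies at chr5:32135801-32157842 on the plus strand. Its level was 46.8, 46.7 and 53.0 FPKM in PMN-MDSCs and 13.5, 11.4 and 13.5 FPKM in WT Mo-MDSCs. The subsets were far apart relative to their spread, and the log2 difference was -1.92 (SE 0.10, adjusted p = 2.21e-05 in limma). In DKO Mo-MDSCs it was 8.47, 9.83 and 8.92 FPKM, below all WT samples.

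Fosb encodes a FOS protein best known for its accumulating splice form in neurons. It lies at chr7:19302696-19310051 on the minus strand. It was the lowest member apart from Egr2 in PMN-MDSCs, at 4.22, 4.17 and 2.05 FPKM. In WT Mo-MDSCs it was at 6.56, 7.06 and 5.04 FPKM, above every PMN-MDSC sample. The WT Mo-MDSC to PMN-MDSC log2 difference was 0.88 (SE 0.29), and it ranged from 0.54 to 1.05 when samples were left out 1 at a time, with the lowest value without the third PMN-MDSC sample. In DKO Mo-MDSCs Fosb was at 2.25, 1.38 and 1.56 FPKM, below every WT Mo-MDSC sample and overlapping with the PMN-MDSC range. Its group means, 3.48 ± 1.24, 6.22 ± 1.05 and 1.73 ± 0.461 FPKM (SD, n = 3), thus did not follow the order of Fos and Fosl2.

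Fosl1, which encodes FRA1 and is not a member, was listed at 0 in 4 of the 9 samples and did not exceed 0.123 FPKM. Within the FOS family of Fos, Fosb, Fosl1 and Fosl2, Fos made up 74.7 to 80.8% of the summed FPKM in PMN-MDSCs, 81.3 to 85.7% in WT and 84.7 to 86.2% in DKO Mo-MDSCs. The share of Fosl2 was 17.6 to 24.3% in PMN-MDSCs, 9.57 to 13% in WT and 10.9 to 13.4% in DKO Mo-MDSCs. Fosb made up 0.941 to 1.67%, 4.65 to 7.14% and 1.88 to 2.90% in the same order, and its shares did not overlap between the 3 groups.

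Junb was the most abundant member in every sample. It encodes a JUN protein that activates transcription less strongly than JUN and restrains proliferation of myeloid cells. The gene lies at chr8:84974484-84978718 on the minus strand. Junb was at 665, 609 and 712 FPKM in PMN-MDSCs and at 183, 162 and 168 FPKM in WT Mo-MDSCs. It was at 118, 123 and 94.2 FPKM in DKO Mo-MDSCs, and no sample of one group reached the range of another. Its fall in WT Mo-MDSCs had a log2 difference of -1.95 (SE 0.09, adjusted p = 1.73e-05 in limma), close to that of Fosl2.

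Jund encodes a JUN protein that many resting cells express. The gene lies at chr8:70698949-70700616 on the plus strand. It was at 142, 147 and 147 FPKM in PMN-MDSCs and at 45.0, 47.0 and 34.8 FPKM in WT Mo-MDSCs. The log2 difference was -1.79 (SE 0.12, adjusted p = 5.95e-05 in limma). Jund in DKO Mo-MDSCs, at 41.6, 44.6 and 34.7 FPKM, overlapped with WT Mo-MDSCs.

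Jun, the gene of c-JUN and the founding member of its family, lies at chr4:95049034-95052222 on the minus strand. It was at 27.5, 22.8 and 26.8 FPKM in PMN-MDSCs, 25.0, 19.6 and 18.8 FPKM in WT Mo-MDSCs and 21.9, 19.4 and 20.5 FPKM in DKO Mo-MDSCs. The WT subsets overlapped, with a log2 difference of -0.29 (SE 0.13, adjusted p = 0.122 in limma). When the replicate number was added as a block, this difference passed the test (adjusted p = 0.0252 in limma), as it did without the first WT Mo-MDSC sample (-0.42, adjusted p = 0.0339 in limma).

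The summed JUN family (Jun, Junb and Jund) was at 778 to 885 FPKM in PMN-MDSCs, 222 to 253 FPKM in WT Mo-MDSCs and 149 to 187 FPKM in DKO Mo-MDSCs. Junb made up 78.2 to 80.4% of that sum in PMN-MDSCs, 70.9 to 75.8% in WT and 63.1 to 65.7% in DKO Mo-MDSCs. The share of Jun was 2.93 to 3.29%, 8.47 to 9.88% and 10.4 to 13.7% in the same order, although the level of Jun itself overlapped between WT subsets. Jun, Junb and Jund overlap annotated genes on the opposite strand (Junos, Prdx2 and Gm11175), as Atf3 does (Gm24748). The library kit keeps strand, but the strand setting of the counting is not given in the sources used here, so their levels may hold reads of the partner genes.

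**Figure D3:**
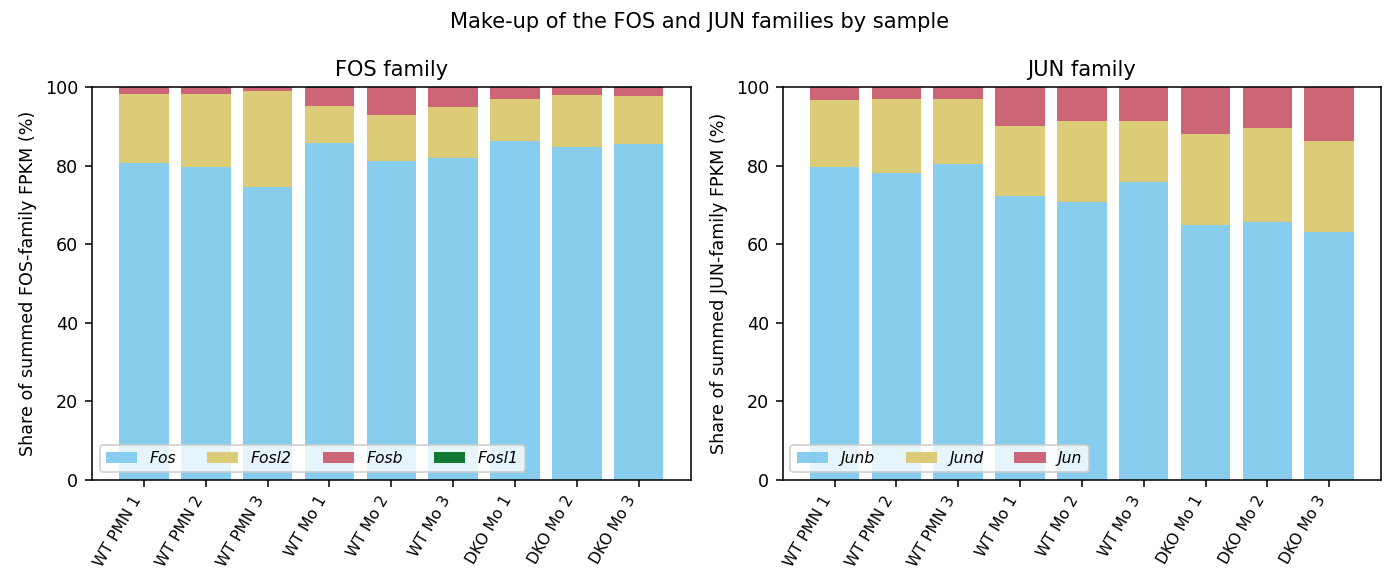
Stacked bars give, for each of the 9 samples, the share of each gene in the summed FPKM of the FOS family (left) and the JUN family (right). Fosb was 4.65 to 7.14% of the FOS family in WT Mo-MDSCs, and Junb went from 78.2 to 80.4% of the JUN family in PMN-MDSCs to 63.1 to 65.7% in DKO Mo-MDSCs.

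Atf3 encodes a stress-induced ATF protein that pairs with JUN proteins and dampens inflammatory gene expression in macrophages. The gene lies at chr1:191170296-191218039 on the minus strand. It was at 9.35, 10.9 and 9.55 FPKM in PMN-MDSCs, 12.20, 13.03 and 11.88 FPKM in WT Mo-MDSCs and 10.3, 9.83 and 7.75 FPKM in DKO Mo-MDSCs. WT Mo-MDSC samples lay above all others. The rise over PMN-MDSCs was small, with a log2 difference of 0.32 (SE 0.09, adjusted p = 0.0308 in limma). It no longer passed the test without any 1 of the WT Mo-MDSC samples, or without the first or the third PMN-MDSC sample (adjusted p from 0.0624 to 0.0956 in limma).

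Egr1 and Egr2 encode zinc finger factors that are induced with Fos and that take part in macrophage differentiation. Egr1 was at 11.6, 10.6 and 8.44 FPKM in PMN-MDSCs, 8.66, 10.8 and 5.68 FPKM in WT Mo-MDSCs and 7.03, 6.93 and 7.18 FPKM in DKO Mo-MDSCs. WT Mo-MDSCs were the most variable group for Egr1, spanning the whole DKO range. Egr2, at chr10:67535475-67542188 on the plus strand, was between 1.51 and 2.16 FPKM in all 9 samples, and its 3 groups overlapped. Neither passed the test between the WT subsets, with log2 differences of -0.32 (SE 0.24, adjusted p = 0.327 in limma) for Egr1 and -0.10 (SE 0.17, adjusted p = 0.673 in limma) for Egr2.

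Ier2 encodes a small nuclear immediate-early protein outside the AP-1 families and lies at chr8:84661331-84662852 on the minus strand, 312 kb from Junb. It was at 131, 121 and 147 FPKM in PMN-MDSCs, 64.0, 59.3 and 70.1 FPKM in WT Mo-MDSCs and 44.9, 45.0 and 39.2 FPKM in DKO Mo-MDSCs. As for Junb, the 3 groups were separate. The fall in WT Mo-MDSCs had a log2 difference of -1.04 (SE 0.10, adjusted p = 0.000299 in limma).

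The calls of Fos, Fosl2, Junb, Jund and Ier2 passed the test under each of 15 other settings. When each sample was scaled to the same total FPKM, the median log2 difference over all genes moved to 0.449, and 86.0% of called genes were higher in WT Mo-MDSCs in place of 47.2%. Under that scaling Jun (0.15), Egr1 (0.12) and Egr2 (0.33) changed sign, and relative to the all-gene median they stood at -0.30, -0.33 and -0.12. Neutrophil markers were lower in WT Mo-MDSCs for 10 of 10 genes (6 passed the test), macrophage markers for 6 of 6 (5 passed) and B-cell markers for 4 of 5 (2 passed). Of 4 dendritic cell markers tested, 2 were higher and passed the test, and 2 were lower and did not pass. T and NK cell markers were lower for 3 of 4 genes tested (1 passed). Monocyte markers were higher for 9 of 9 genes (8 passed) and erythroid markers for 4 of 5 (0 passed). Over all genes tested, 20.6% were called lower and 18.5% higher. The part of all these markers in the members' differences was not tested.

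In the second comparison, DKO against WT Mo-MDSCs, 9 of the 10 members had lower means in DKO cells. For Fos, Fosb, Fosl2, Junb, Ier2 and Atf3 every DKO sample lay below every WT sample, while 12.9% of 11451 genes tested lay wholly lower and 7.96% wholly higher. Jun, Jund, Egr1 and Egr2 overlapped. Fosb had the largest log2 difference, -1.80 (SE 0.21), a mean level of 1.73 against 6.22 FPKM. Junb followed at -0.62 (SE 0.12), Ier2 at -0.58 (SE 0.10), Fos at -0.55 (SE 0.15), Fosl2 at -0.49 (SE 0.11) and Atf3 at -0.42 (SE 0.12). Values of the other 4 were between -0.20 for Egr1 and 0.10 for Egr2, with Jun at -0.02 and Jund at -0.07. The median was -0.45 over the members and -0.02 over all genes.

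The choice of members used these differences, and they are not evidence on the list. The log2 difference of Fosb lay between -2.00 and -1.66 when 1 sample at a time was left out, and was -1.41 with a pseudocount of 1 FPKM. With only replicates 2 and 3, whose libraries belong to a higher-numbered series than those of replicate 1, it was -1.95.

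**Figure D4:**
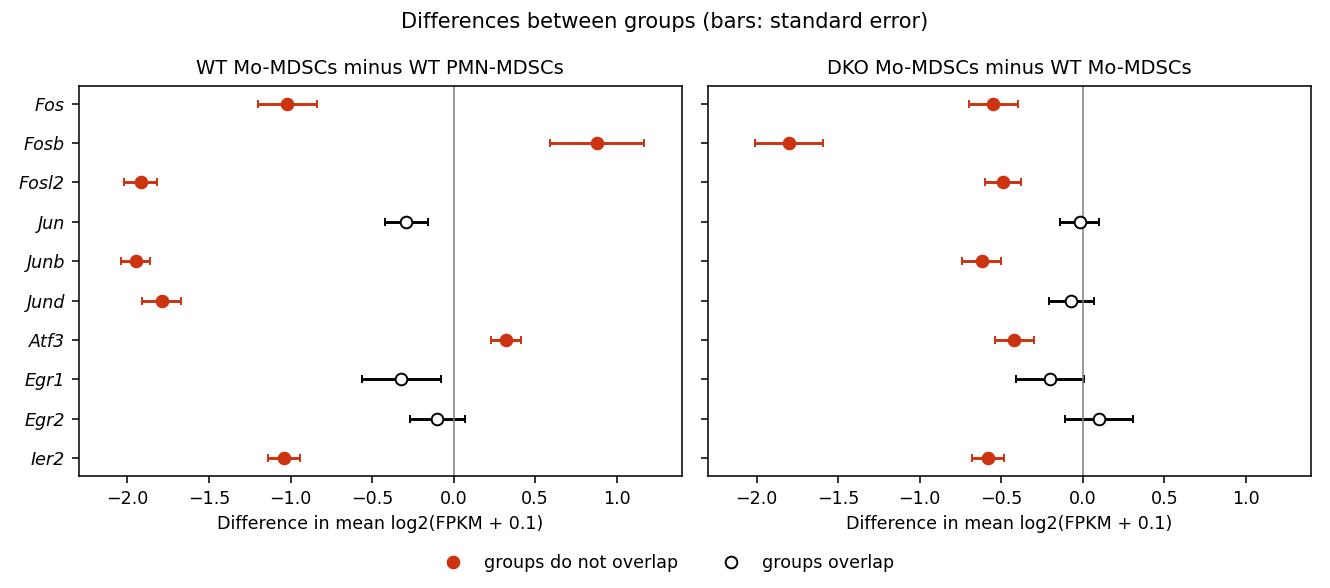
Differences in mean log2(FPKM + 0.1) for the 10 members, with standard error bars, in WT Mo-MDSCs minus PMN-MDSCs (left) and DKO minus WT Mo-MDSCs (right). Filled red points mark genes whose 3 samples per group did not overlap, 7 members on the left and 6 on the right. Both counts include Fosb, whose level was part of the choice. Of all genes tested, 26.4% lay wholly lower and 26.2% wholly higher on the left, and 12.9% and 7.96% on the right. Fosb lay at 0.88 on the left and -1.80 on the right.

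Neutrophil markers moved with this comparison. Of 10 markers, 9 had lower means in DKO cells and 5 lay wholly below WT, beside 12.9% of all genes tested. Mmp8 lay wholly above WT, at a mean of 86.6 against 49.2 FPKM. The other 4 overlapped, and none of the 10 was called. The third WT Mo-MDSC sample had the highest neutrophil marker sum of its group, 61878 FPKM. Without it, the DKO to WT log2 difference was -1.94 for Fosb, -0.63 for Fos, -0.63 for Junb, -0.52 for Ier2, -0.45 for Fosl2 and -0.45 for Atf3. The first and second WT samples, at 30137 and 17868 FPKM, also had sums above every DKO sample (7027 to 17098 FPKM). S100a8 and S100a9 held most of each sum, and single markers did not all follow it. In the second WT and the second DKO sample, S100a8 was at 6472 and 6124 FPKM, but Cxcr2 at 6.867 and 9.705 FPKM. Leaving out the third WT sample therefore did not remove the difference in the summed neutrophil markers. Monocyte markers were lower for 7 of 9 genes. Of these 9, 5 lay wholly below WT and 1 wholly above, beside 12.9% and 7.96% of all genes tested. Macrophage markers were higher for 6 of 6, B-cell markers for 5 of 5 and erythroid markers for 5 of 5 genes. Wholly above WT were 1, 2 and 0 of them, in that order, and none on these 4 lists was called. Over all 11451 genes tested, 6129 were lower and 5322 higher by any amount. Dendritic cell markers were higher for 3 of 4 genes tested, while Flt3 lay wholly below WT, with none called. Heat shock genes, a general stress readout, were higher for 8 of 9 genes tested, with none called. The part of these shifts in the members' values was not tested.

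The median coefficient of variation over the members was 9.12% in PMN-MDSCs, 15.4% in WT Mo-MDSCs and 10.2% in DKO Mo-MDSCs, beside 9.76%, 8.51% and 10.1% over 10622 genes. These are medians, single members did not all follow them, and the difference between groups was not tested. In WT Mo-MDSCs it ran from 4.79% for Atf3 to 30.7% for Egr1. The first and second WT Mo-MDSC samples held the highest value of their group for 4 and 5 members, the third for 1.

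Other genes of the pathway, on lists drawn up with earlier results known, were tested in the same fits. Feedback inhibitors limit immediate-early signalling by removing phosphate from kinases, degrading transcripts or blocking receptors. The list used here also held stress-response genes such as Gadd45a, which do not act in these ways. Of 24 genes of the list tested, 13 fell and none rose in WT Mo-MDSCs relative to PMN-MDSCs. Their median log2 difference was -0.46. Over all genes tested, 20.6% fell and 18.5% rose, with a median of 0.01. Dusp1, a phosphatase of MAP kinases, went from 290 ± 25.1 to 25.5 ± 6.90 FPKM (SD, n = 3), a log2 difference of -3.53 (SE 0.18, adjusted p = 2.28e-05 in limma). Spry2, an inhibitor of receptor tyrosine kinase signalling, went from 8.52 ± 2.00 to 0.540 ± 0.146 FPKM (log2 difference -3.75). Gadd45a, a stress-response gene, fell by 2.60 and Socs3, an inhibitor of cytokine receptor signalling, fell by 2.59 on the log2 scale.

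Of 16 further immediate-early factors tested, 2 rose and 8 fell (median log2 difference -0.29), beside 18.5% and 20.6% of all genes. Both that rose are known in monocytes. Klf4, a factor of monocyte differentiation, was at 3.90, 2.90 and 2.41 FPKM in PMN-MDSCs and 34.1, 24.1 and 31.5 FPKM in WT Mo-MDSCs, a log2 difference of 3.25 (SE 0.20, adjusted p = 4.18e-05 in limma). Nr4a1, a nuclear receptor required for patrolling monocytes, was at 27.0, 32.1 and 27.7 FPKM and 79.9, 74.0 and 94.4 FPKM, a log2 difference of 1.51 (SE 0.12, adjusted p = 0.000103 in limma). Ier3 fell by 1.95 and Ier5 fell by 1.52 on the log2 scale. Egr4 was listed at 0 in 8 of the 9 samples.

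Among 15 further basic leucine zipper genes tested, 3 rose and 6 fell (median log2 difference -0.33), beside 18.5% and 20.6% of all genes. Batf3, which pairs with JUN proteins, rose by 1.06 on the log2 scale. Ddit3, a mediator of the unfolded protein response, fell by 1.63, Jdp2, a repressor that binds JUN, fell by 1.28 and Nfil3 fell by 0.92. Among 18 upstream kinases and ternary complex factors, 5 rose and 5 fell (median -0.01), beside the same 18.5% and 20.6%. The called changes named here were small. Elk3 rose by 0.89 and Mapkapk2 rose by 0.64, while Map2k4 fell by 0.77 and Mapk3, which encodes ERK1, fell by 0.64 on the log2 scale. Mapk3 lost its call without the first (adjusted p = 0.0622 in limma) or the second WT Mo-MDSC sample (adjusted p = 0.0576 in limma). It also lost it with quantile normalization (-0.33, adjusted p = 0.0829 in limma), with equal total FPKM (-0.20, adjusted p = 0.143 in limma) and with replicates 2 and 3 only (-0.68, adjusted p = 0.0713 in limma). With replicates 2 and 3 only, Batf3 (adjusted p = 0.0574 in limma), Nfil3 (0.104) and Mapkapk2 (0.0515) lost their calls too. Of 9 heat shock genes tested, 1 rose and 2 fell, again beside 18.5% and 20.6% of all genes.

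Between the genotypes of Mo-MDSCs, 1 of the 72 other listed genes tested was called, and over all genes 0.0873% were called lower and 0.166% higher. Socs3 fell from 32.5, 38.2 and 35.7 FPKM to 14.6, 20.1 and 15.3 FPKM, a log2 difference of -1.10 (SE 0.13, adjusted p = 0.0278 in limma). The call was lost under 7 of 15 other settings, among them leaving out any 1 WT sample or the first or the third DKO sample, with adjusted p up to 0.290. Every DKO sample lay below every WT sample for 18 of the 72 genes and above for 5, beside 12.9% and 7.96% of all genes tested. Klf4, at 17.7, 20.7 and 17.2 FPKM in DKO cells, and Nr4a1, at 44.9, 57.5 and 55.2 FPKM, were below their WT Mo-MDSC samples and above all PMN-MDSC samples. Egr3, chosen after its values were seen, differed from Egr1 and Egr2 in lying wholly above WT, at 9.47, 9.90 and 14.9 FPKM against 8.02, 7.32 and 7.86 FPKM, and it was not called.

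Genes most like Fos and Fosb across the 9 samples were ranked by the root mean square difference of their centred log2 levels among 11726 genes. For Fos the nearest was Zfp36 (0.163), the gene of a protein that destabilises short-lived transcripts, followed by 2610035D17Rik (0.169), Rnf149 (0.202), Tpd52 (0.203) and Tlr6 (0.216). Zfp36 averaged 597, 266 and 195 FPKM in PMN-MDSCs, WT Mo-MDSCs and DKO Mo-MDSCs. The nearest to Fosb were less close, with Ggh at 0.458, Gm5547 at 0.477, Tsga13 at 0.514, Selm at 0.520 and Prss30 at 0.524. Ggh, which encodes a folate-processing hydrolase, averaged 17.7, 31.8 and 12.4 FPKM in the same order.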

How the data were processed

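Poly(A) RNA was sequenced (TruSeq stranded mRNA, single-end) in 9 samples. Per the labels and the study's methods, the authors mapped reads to mm10 with TopHat2 2.0.13, Bowtie2 2.2.3 and SAMtools 0.1.19 and deposited FPKM per gene from Cuffnorm 2.2.1, as normalized across samples by the authors. The gene annotation is not given in the sources used here. Values were taken as log2(FPKM + 0.1), filtered at 1 FPKM in at least 3 of 6 samples, and compared with limma 3.58.1 (R 4.3.3) within the 6 samples of each comparison, with Benjamini-Hochberg adjustment at 0.05 over all genes. The procedure was tested on simulated data. The depth in reads is unknown, and the median SE of a log2 difference was 0.118 between subsets and 0.122 between genotypes. With 3 samples a group the smallest exact permutation p is 0.1, so single-gene permutation tests were not used. The labels do not say that samples came from separate animals, so p-values measure the spread between these samples, which may be technical.

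Same-numbered WT Mo-MDSC and PMN-MDSC samples deviated together from their group means (correlations 0.294, 0.483 and 0.200 across genes), so the numbers may pair those samples. The labels state no pairing, and replicate 1 of every group also belongs to a lower-numbered library series. The main fit left the numbers out, and the block is given as an alternative. With the block the median SE between subsets was 0.072. Members and lists were chosen with earlier results of these data known. Named genes were the 10 members, up to 4 genes of each pathway list with the largest change among called genes whose groups did not overlap, the 5 genes most alike in pattern to Fos and to Fosb, and the knockout genes. Others named singly are the genes called in a list, Fosl1 and Egr4 at 0, Egr3, and Mmp8, the neutrophil marker with a higher mean in DKO cells. Alternatives were the pseudocount, filter, scaling, samples in the fit, replicate block and samples left out. Gene positions are from GENCODE M21 (GRCm38) and promoters from RefSeq. Python 3.11.15 with pandas 2.3.3 and matplotlib 3.10.9 was used.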

Additional observations from a re-analysis of the deposited data

How the results depend on the processing

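Values are counts of genes called at an adjusted p below 0.05 in limma. Between the WT subsets, 2121 genes were higher and 2371 lower. Replicates 2 and 3 alone gave 1275 higher, and scaling to an equal total FPKM gave 5821 higher and 950 lower. Leaving out 1 sample gave 1462 to 1804 higher and 1857 to 2223 lower. With the replicate block, 3167 were higher and 3417 lower. Among members other than Fosb the higher count went from 1 to 0 with all 9 samples in 1 fit (Atf3 adjusted p = 0.0586) and with replicates 2 and 3 only (0.142), and was 0 to 1 with 1 sample left out. The lower count was 5 to 6 throughout. Of the other listed genes, 10 were higher and 32 lower, against 6 higher with replicates 2 and 3 only and 22 higher and 21 lower after that scaling. Leaving out 1 sample gave 7 to 10 higher and 24 to 30 lower.

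Between DKO and WT Mo-MDSCs, 19 genes were higher and 10 lower. Without a filter there were 9 higher and 4 lower, with replicates 2 and 3 only 7 higher and 0 lower, and with all 9 samples in 1 fit 26 lower. Same-numbered samples did not all deviate together here (correlations 0.348, 0.226 and -0.070 across genes), so it is not clear whether the numbers pair them. Replicate 1 of both genotypes belongs to a lower-numbered library series than replicates 2 and 3. The replicate block gave 14 higher and 6 lower. Leaving out 1 sample gave 6 to 15 higher and 1 to 8 lower. Without the first or the third WT sample, or the third DKO sample, 1 was lower. The cause was not tested. No result changed sign among those called. The depth in reads is unknown, so no limit from depth is given for single genes.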
